A study of Homo sapiens with 12 samples.

Results

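Protein phosphatase 1 (PP1) is the serine/threonine phosphatase whose catalytic subunits are directed, restrained or held in reserve by a large set of regulatory proteins. The genes described here are 10 members of that family: the catalytic subunit genes PPP1CA, PPP1CB and PPP1CC and the regulatory subunit genes PPP1R1A, PPP1R2, PPP1R7, PPP1R10, PPP1R12A, PPP1R15A and PPP1R15B. They were chosen by name, through every array probe that the platform annotation pairs with that single gene. This gave 13 of the 30102 probes that carry a single gene. A probe counted as detected on an array at a detection p-value under 0.01 and was kept if 3 or more of the 12 arrays detected it. Of the 13 probes 10 passed, so 9 of the 10 genes could be compared, out of 10873 genes in all. PPP1R15B was the gene left without a usable probe. PPP1R8, which encodes NIPP1, has no named probe and is not analysed here.

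The cells were OVCAR-3, an established human ovarian cancer line grown in RPMI with 20% serum and insulin. All 4 groups were transfected with small interfering RNA (siRNA) by Lipofectamine RNAiMAX and harvested after 72 hours. The siOct4 group received siRNA to Oct4 (gene POU5F1), the siCcnf+siNipp1 group received siRNAs to Ccnf and Nipp1 together, the siRb1 group received siRNA to Rb1, and the control group received control siRNA. Each group held 3 Illumina HT-12 arrays. The Ccnf and Nipp1 siRNAs were given only jointly, so the changes that each made cannot be told apart. The labels do not say that the samples were separate cultures, so p-values measure a spread between samples that may be partly technical.

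The siRNA targets were read first. POU5F1 was at least 15.9-fold lower in siOct4 than in control cells (limma adjusted p = 1.81e-07). CCNF was lower by a log2 difference of -1.55 in siCcnf+siNipp1 cells (adjusted p = 0.000791), and RB1 was at least 2.22-fold lower in siRb1 cells (adjusted p = 0.00102). The targets also differed elsewhere: CCNF by -0.96 and RB1 by -0.61 in siOct4 cells (adjusted p = 0.0133 and 0.0435), and POU5F1 by 1.03 in siCcnf+siNipp1 cells (adjusted p = 0.00298). In siRb1 cells POU5F1 was not called, but its log2 values were 11.30, 11.19 and 11.64, against 10.60, 10.47 and 10.66 in control cells. With the replicate number as a block in the fit, 1 of the 3 targets was called higher in siRb1 cells. The siOct4 count of 3 targets lower became 1 without siOct4 replicate 2 or 3, and the siCcnf+siNipp1 count of 2 targets called became 1 with the mean of a gene's kept probes. Between 16186 and 17351 probes were detected per array, and correlations across probes were 0.979 to 0.988 within groups and 0.940 to 0.985 between groups. Of 8 ovarian epithelial markers, PAX8, EPCAM, KRT18, KRT7 and CDH1 were detected on all 12 arrays, MUC16 on 4, KRT8 on 3 and WT1 on 0. RNA was taken from whole cultures, so fewer cells expressing a gene and less RNA per cell cannot be told apart.

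The catalytic subunits have little substrate choice of their own. Regulatory subunits dock onto them, mostly through a short motif of the RVxF type, and place the enzyme at chromosomes, myosin, glycogen or the translation machinery. Others block the active site: inhibitor-1 (PPP1R1A) does so once protein kinase A has phosphorylated it, and inhibitor-2 (PPP1R2) is regulated by the kinase GSK3. In dividing cells PP1 removes phosphates placed by CDK1 and the Aurora kinases, and it is needed for exit from mitosis.

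Upstream sequence is shown for 3 members. PPP1R2 and PPP1R7 are the members detected on all 12 arrays that changed against control, and PPP1R15A is the member known for induction under stress. The sequences are the 250 bases before the RefSeq transcript start, read on the gene's strand from GRCh38.p14, with motif matches in capitals. The windows are chr3:195543326-195543575 on the minus strand for PPP1R2, chr2:241149323-241149572 on the plus strand for PPP1R7, where it is the upstream-most of 3 annotated starts, and chr19:48872171-48872420 on the plus strand for PPP1R15A.
PPP1R2: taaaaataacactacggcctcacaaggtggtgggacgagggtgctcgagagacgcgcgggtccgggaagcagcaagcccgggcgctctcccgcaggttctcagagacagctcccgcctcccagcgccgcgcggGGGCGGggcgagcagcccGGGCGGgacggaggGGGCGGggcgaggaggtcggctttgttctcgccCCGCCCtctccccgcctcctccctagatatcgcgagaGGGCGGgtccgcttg
PPP1R7: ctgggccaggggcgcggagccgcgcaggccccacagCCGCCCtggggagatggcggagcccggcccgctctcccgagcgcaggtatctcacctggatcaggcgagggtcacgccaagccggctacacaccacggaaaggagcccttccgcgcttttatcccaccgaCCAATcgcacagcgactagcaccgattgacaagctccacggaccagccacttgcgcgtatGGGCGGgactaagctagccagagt
PPP1R15A: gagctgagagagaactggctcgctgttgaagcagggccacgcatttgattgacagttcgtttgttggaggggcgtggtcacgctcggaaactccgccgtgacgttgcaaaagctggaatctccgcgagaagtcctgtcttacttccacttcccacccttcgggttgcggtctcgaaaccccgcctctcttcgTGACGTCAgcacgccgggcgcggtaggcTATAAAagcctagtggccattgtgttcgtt

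The PPP1R2 window held 5 GC boxes (GGGCGG, present in 42.6% of 35116 such windows), which begin 117, 99, 85, 52 and 15 bases before the start. The PPP1R7 window held GC boxes 214 and 24 bases before the start and a CCAAT box (CCAAT, in 32.0% of windows) 84 bases before it. The PPP1R15A window held a cAMP response element (TGACGTCA, in 1.65% of windows) 58 bases before the start and a TATA box (TATAAA, in 10.7% of windows) 30 bases before it. The octamer ATGCAAAT (1.63% of windows), the cell-cycle element TTTGAA (13.3%), the E2F motif TTTCCCGC (1.39%) and the amino acid response element TGATGNAA (3.14%) were also searched, and these letters do not occur in the 3 windows shown. Both strands were searched, and no matches overlapped each other in these windows. GC content was 71.2% for PPP1R2, 67.2% for PPP1R7 and 57.2% for PPP1R15A, against a median of 58.0% over all windows. A match describes letters and is not evidence of a bound site. In all, 8 of the 10 members were found in the promoter table.

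Over the 4 groups, the limma F test (Benjamini-Hochberg adjusted p under 0.05, the threshold used throughout) called 3 of the 9 members, PPP1R1A, PPP1R2 and PPP1R7, beside 56.7% of all genes tested. This share of members is below that of all genes and is not read by class of subunit. The catalytic subunit genes PPP1CB and PPP1CC missed the threshold (F test adjusted p = 0.0565 and 0.0772). PPP1R1A passed the detection filter only through groups in which it was high, so its place in this count follows in part from the filter. The arrays of one replicate number varied together across groups, and with the replicate number as a block the F test called 6 members, adding PPP1CB, PPP1CC and PPP1R15A, beside 68% of all genes.

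**Figure D1:**
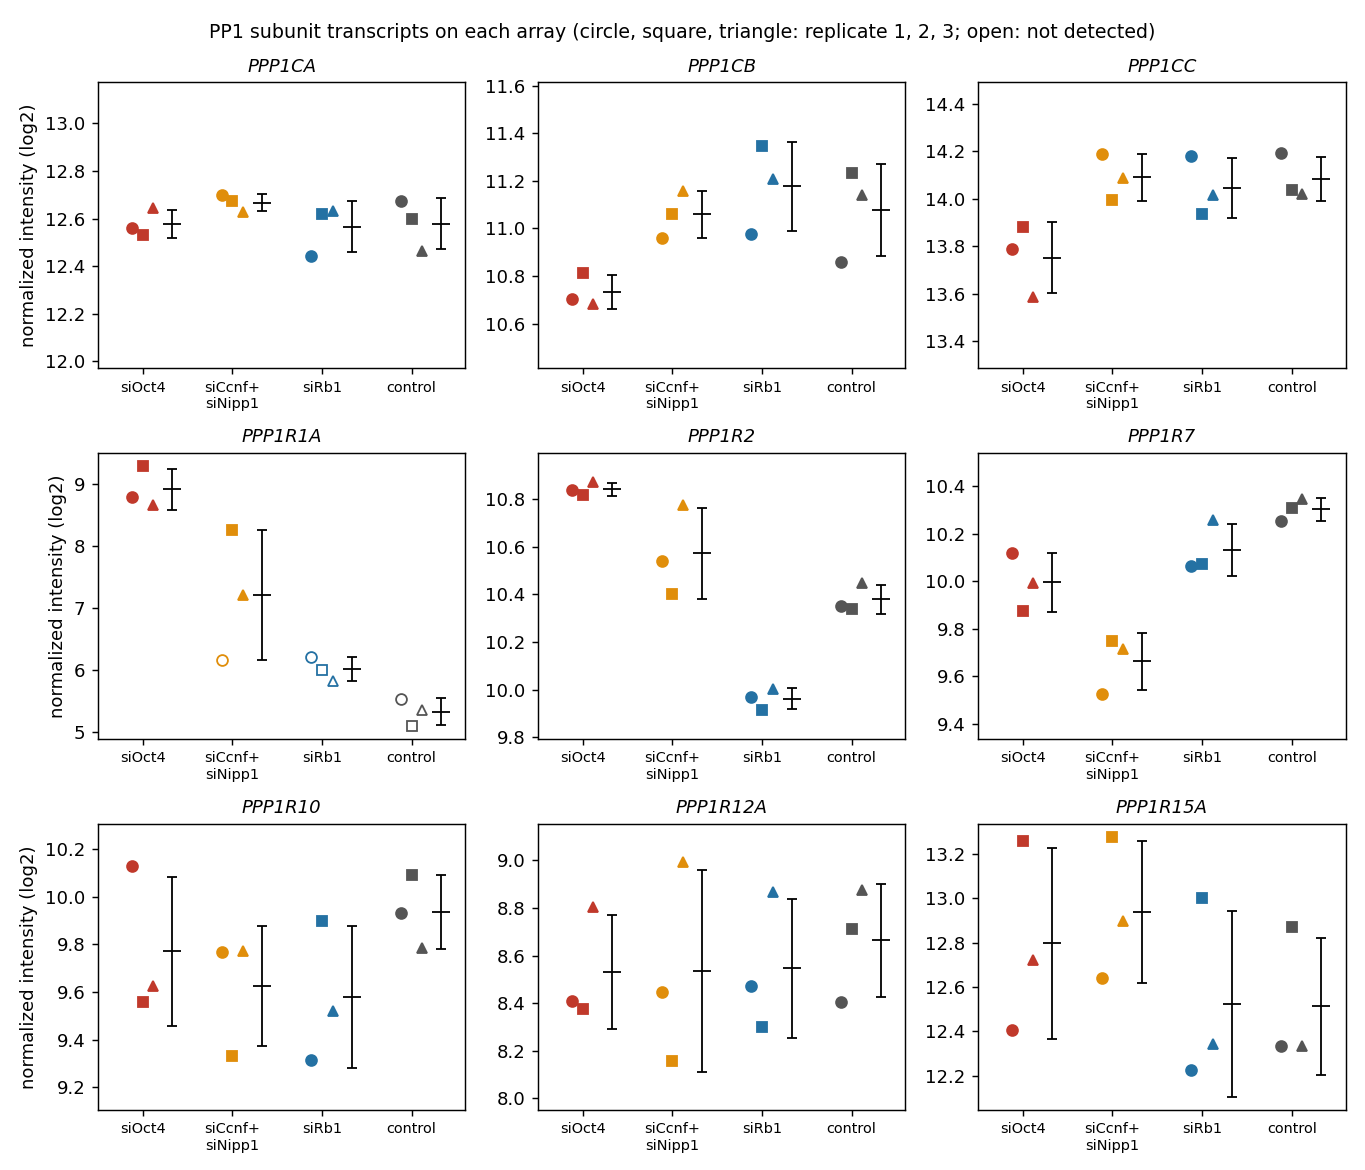
Normalized log2 intensity of the 9 measured PP1 subunit genes on each of the 12 arrays, 1 panel a gene with its own vertical scale. Circles, squares and triangles are replicates 1, 2 and 3, open symbols are arrays on which the probe was not detected, and the black bar is the group mean with its SD. PPP1R1A and PPP1R2 are highest in siOct4 cells, PPP1R7 is lowest in siCcnf+siNipp1 cells, and the groups overlap for PPP1CA, PPP1R12A and PPP1R15A.

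PPP1R1A encodes inhibitor-1. Its signal, before any background correction, was 715.8, 756.1 and 581.1 on the siOct4 arrays, 218.7, 412.8 and 321.3 on the siCcnf+siNipp1 arrays, 205.3, 197.6 and 195.3 on the siRb1 arrays, and 202.5, 164.1 and 181.7 on the control arrays. It was detected on all 3 siOct4 arrays, on replicates 2 and 3 of siCcnf+siNipp1, and on none of the siRb1 or control arrays. On the normalized log2 scale its means were 8.92 ± 0.33 in siOct4 cells, 7.22 ± 1.05 in siCcnf+siNipp1 cells, 6.01 ± 0.20 in siRb1 cells and 5.33 ± 0.22 in control cells (SD, n = 3 each).

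Because PPP1R1A lay below detection in control cells, its change has only a lower bound, which sets the higher group's mean against the lowest detected signal on the arrays of the other group. PPP1R1A was at least 5.26-fold higher in siOct4 than in control cells (limma adjusted p = 7.55e-05). It was also called higher in siCcnf+siNipp1 than in control cells (limma adjusted p = 0.00314). No bound is given there, because the siCcnf+siNipp1 mean includes replicate 1, which was below detection. The fitted log2 differences were 3.59 ± 0.39 and 1.89 ± 0.39 (SE), and without background correction they were 1.87 and 0.84, still past the threshold. Within replicate numbers, siOct4 exceeded control by 3.26, 4.19 and 3.31, whereas siCcnf+siNipp1 exceeded it by 0.63, 3.16 and 1.87. All of these differences were above 0, but the control arrays and siCcnf+siNipp1 replicate 1 were below detection, so their sizes depend on the background correction.

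PPP1R1A also differed between the knockdowns. It was higher in siOct4 than in siCcnf+siNipp1 cells by 1.70 ± 0.39 on the log2 scale (SE, adjusted p = 0.00607), and 1.02 without background correction. Against siRb1 it was at least 4.94-fold higher in siOct4 cells (adjusted p = 0.000276). PPP1R1A was also called higher in siCcnf+siNipp1 than in siRb1 cells (adjusted p = 0.0328), but the arrays of these groups overlapped. No bound is given here either, because siCcnf+siNipp1 replicate 1 was below detection. The call was lost in 7 of 22 alternatives. Without siCcnf+siNipp1 replicate 2 the fitted difference was 0.68 (adjusted p = 0.11), and the call was also lost without siCcnf+siNipp1 replicate 3 (0.0765) and without any one of the siRb1 replicates. siRb1 and control were both below detection, and their fitted difference did not pass (adjusted p = 0.394).

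Summed signals of leukocyte and neuronal markers were highest in siOct4 cells, as PPP1R1A was, and those of fibroblast markers were not. Of 4 leukocyte markers with a probe, CD68 was detected on all 12 arrays and PTPRC, CD3E and LYZ on 0, and their summed normalized signal was 3242 to 4733 in siOct4 cells, 1986 to 2622 in siCcnf+siNipp1 cells, 1777 to 2082 in siRb1 cells and 1477 to 2225 in control cells. Of 3 neuronal markers, SYT1 was detected on 2 arrays and RBFOX3 and SNAP25 on 0, with sums of 191.5 to 232.5 in siOct4 cells, 114.0 to 153.0 in siCcnf+siNipp1 cells, 123.2 to 142.8 in siRb1 cells and 104.2 to 134.5 in control cells. Of 5 fibroblast markers, COL1A1 was detected on 7 arrays and the other 4 on 0. Their sums were 252.7 to 280.2 in siOct4 cells, 287.5 to 403.2 in siCcnf+siNipp1 cells, 257.3 to 298.0 in siRb1 cells and 259.8 to 287.1 in control cells. The part of these markers in the PPP1R1A difference was not tested. The genes whose log2 values followed PPP1R1A most closely over the 12 arrays were HLA-C (r = 0.972), which presents peptides to T cells, NCCRP1 (r = 0.968) and the phosphatase gene DUSP22 (r = 0.965). These correlations are a description over arrays that share groups and replicate numbers.

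PPP1R2 encodes inhibitor-2, which binds the catalytic subunit directly. Its log2 intensity was 10.84, 10.82 and 10.87 on the siOct4 arrays, 10.54, 10.40 and 10.78 on the siCcnf+siNipp1 arrays, 9.97, 9.91 and 10.00 on the siRb1 arrays, and 10.35, 10.34 and 10.45 on the control arrays. All siOct4 arrays lay above, and all siRb1 arrays below, every array of the other groups. PPP1R2 was 1.38-fold higher in siOct4 than in control cells, a log2 difference of 0.46 ± 0.11 (SE, adjusted p = 0.0091), a call lost when arrays were scaled by their medians (0.39, adjusted p = 0.0833).

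In siRb1 cells PPP1R2 was lower than in control by a log2 difference of -0.42 ± 0.11 (SE, adjusted p = 0.067), which missed the threshold, and with the replicate block it passed (adjusted p = 0.0229). The differences within replicate numbers were -0.38, -0.42 and -0.45. The siCcnf+siNipp1 mean exceeded control by 0.19 (adjusted p = 0.209). The siRb1 difference from control passed in 3 of 22 alternatives, so a fall of PPP1R2 below control is not established. The direct comparison of siOct4 with siRb1 gave 0.88 ± 0.11 (SE, limma adjusted p = 0.000218), or 1.84-fold higher in siOct4 cells. The 8 epithelial markers summed to 9474 to 10525 in siOct4 cells, 7312 to 10786 in siCcnf+siNipp1 cells, 7460 to 8608 in siRb1 cells and 10884 to 11334 in control cells, and their part in the PPP1R2 difference was not tested. It was also 1.53-fold higher in siCcnf+siNipp1 than in siRb1 cells (0.61 ± 0.11, SE, adjusted p = 0.00181). The neighbouring groups siOct4 and siCcnf+siNipp1 differed by 0.27 (adjusted p = 0.0893, and 0.0358 with the replicate block). The genes closest to PPP1R2 in pattern were the kinesin gene KIF1B (r = 0.961), the sialyltransferase gene ST6GAL1 (r = 0.957) and PAM (r = 0.957), which encodes a peptide-amidating enzyme.

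PPP1R7 encodes SDS22, a leucine-rich repeat protein that binds the catalytic subunits and keeps a pool of them in reserve. Its log2 intensity was 10.12, 9.87 and 9.99 on the siOct4 arrays, 9.53, 9.75 and 9.72 on the siCcnf+siNipp1 arrays, 10.07, 10.07 and 10.26 on the siRb1 arrays, and 10.25, 10.31 and 10.35 on the control arrays. The siCcnf+siNipp1 arrays were the lowest of the 4 groups and did not overlap any other group. PPP1R7 fell in siCcnf+siNipp1 cells, by a log2 difference of -0.64 ± 0.11 against control (SE, adjusted p = 0.00134). This was 1.56-fold lower, and the differences within replicate numbers were -0.73, -0.56 and -0.63. The call was kept in all 22 alternatives run for it, with log2 differences of -0.72 to -0.54.

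With siOct4, PPP1R7 differed from control by -0.31 (adjusted p = 0.0594, and 0.0374 with the replicate block), and with siRb1 by -0.17 (adjusted p = 0.485). Between knockdowns, PPP1R7 was lower in siCcnf+siNipp1 than in siRb1 cells by -0.47 ± 0.11 (SE, adjusted p = 0.0081), which missed the threshold under median scaling (adjusted p = 0.0565). It was higher in siOct4 than in siCcnf+siNipp1 cells by 0.33 ± 0.11 (SE, adjusted p = 0.0425), a call lost in 13 of 22 alternatives. The siOct4 and siRb1 groups differed by -0.14 (adjusted p = 0.391). Of 4 endothelial markers, VWF and CDH5 were detected on all 12 arrays and PECAM1 and KDR on 0, and their summed normalized signal was 1174 to 1749 in siOct4 cells, 840 to 1156 in siCcnf+siNipp1 cells, 1393 to 1454 in siRb1 cells and 1641 to 1747 in control cells. Their part in the PPP1R7 difference was not tested. The genes closest in pattern to PPP1R7 were the noncoding RNA gene PICSAR (r = 0.950), SKIDA1 (r = 0.944) and PPARGC1A (r = 0.940), a coactivator of mitochondrial genes.

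**Figure D2:**
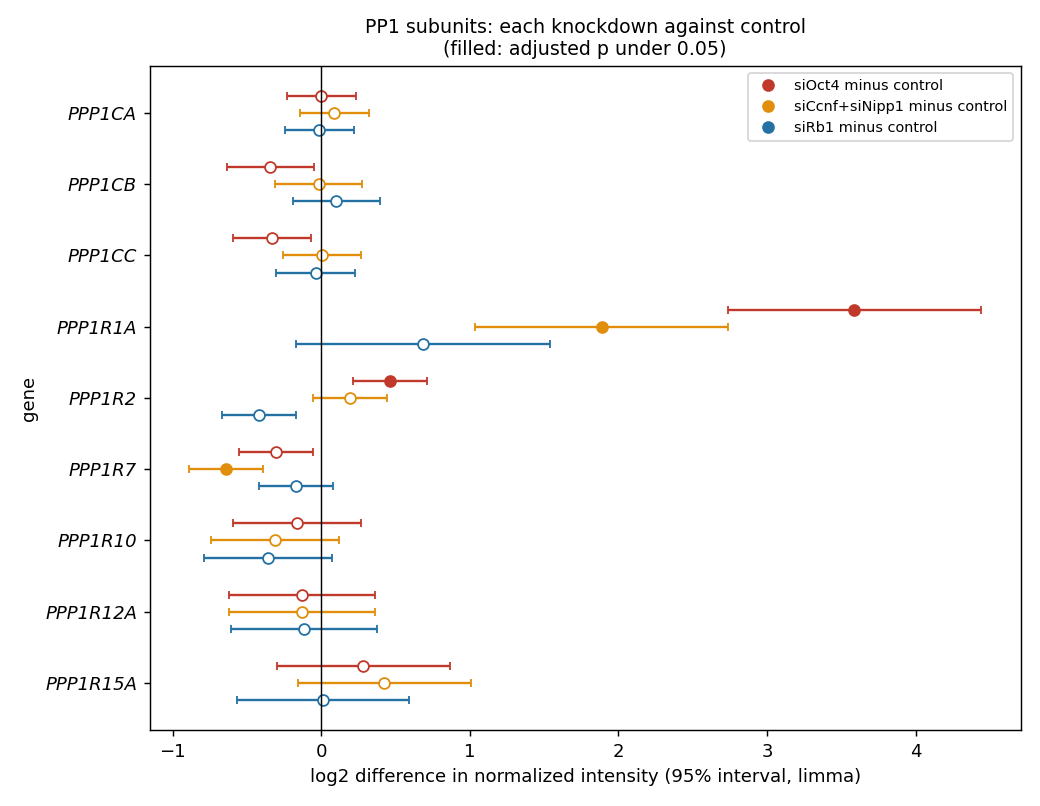
Log2 difference in normalized intensity between each knockdown and control for the 9 measured genes, with 95% intervals from limma. Filled points passed an adjusted p of 0.05: PPP1R1A in siOct4 and siCcnf+siNipp1 cells, PPP1R2 in siOct4 cells and PPP1R7 in siCcnf+siNipp1 cells. For PPP1R1A the fitted values depend on the background correction, since control arrays were below detection.

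The catalytic subunits differed less between groups. PPP1CA, which encodes PP1 alpha, had log2 intensities of 12.56, 12.53 and 12.64 on the siOct4 arrays, 12.70, 12.67 and 12.63 on the siCcnf+siNipp1 arrays, 12.44, 12.62 and 12.63 on the siRb1 arrays, and 12.67, 12.60 and 12.46 on the control arrays. All groups overlapped control. The 95% intervals for the difference from control were -0.23 to 0.23 for siOct4, -0.14 to 0.32 for siCcnf+siNipp1 and -0.25 to 0.22 for siRb1. A further PPP1CA probe gave no call either, with differences of 0.13, 0.16 and 0.13 in the same order, and the values of the probe pair correlated only weakly over the 12 arrays (r = 0.159).

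PPP1CB encodes PP1 beta, the catalytic partner of the myosin phosphatase. Its log2 intensities were 10.70, 10.81 and 10.68 on the siOct4 arrays, 10.96, 11.06 and 11.16 on the siCcnf+siNipp1 arrays, 10.98, 11.35 and 11.21 on the siRb1 arrays, and 10.86, 11.23 and 11.14 on the control arrays. The siOct4 arrays were below every array of the other groups. Against control the log2 difference was -0.34 ± 0.13 (SE, adjusted p = 0.0699), and it passed with the replicate block (adjusted p = 0.0186), where the differences within numbers were -0.16, -0.42 and -0.46. PPP1CB was lower in siOct4 than in siRb1 cells by -0.44 ± 0.13 (SE, adjusted p = 0.0257), a call lost in 6 of 22 alternatives, among them leaving out siOct4 replicate 1 (0.0554) or replicate 3 (0.0695), or siRb1 replicate 2 (0.0954) or replicate 3 (0.0713). The difference between siOct4 and siCcnf+siNipp1 was -0.33 (adjusted p = 0.0806, and 0.0226 with the block). A further PPP1CB probe was detected on 1 of 12 arrays and entered no test.

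PPP1CC, which encodes PP1 gamma, was also lowest in siOct4 cells. Its log2 intensities were 13.79, 13.88 and 13.59 on the siOct4 arrays, 14.19, 13.99 and 14.09 on the siCcnf+siNipp1 arrays, 14.18, 13.94 and 14.01 on the siRb1 arrays, and 14.19, 14.04 and 14.02 on the control arrays. The siOct4 arrays again lay below all the others, and the other 3 groups overlapped. The log2 difference between siOct4 and control was -0.33 ± 0.12 (SE, adjusted p = 0.054, and 0.0228 with the block). PPP1CC was lower in siOct4 than in siCcnf+siNipp1 cells by -0.34 ± 0.12 (SE, adjusted p = 0.0489), a call lost in 14 of 22 alternatives. Against siRb1 the siOct4 difference was -0.29 (adjusted p = 0.085, and 0.0383 with the block). Over the 12 arrays PPP1CB and PPP1CC correlated with r = 0.440, and with PPP1R1A they correlated with r = -0.664 and r = -0.675. These are descriptions over arrays that share groups and replicate numbers.

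PPP1R10 and PPP1R12A encode targeting subunits. PPP1R10 (PNUTS) holds PP1 on chromatin with the transcription machinery, and PPP1R12A (MYPT1) directs PP1 beta to myosin. PPP1R10 had log2 intensities of 10.13, 9.56 and 9.62 on the siOct4 arrays, 9.77, 9.33 and 9.77 on the siCcnf+siNipp1 arrays, 9.31, 9.90 and 9.52 on the siRb1 arrays, and 9.93, 10.09 and 9.78 on the control arrays. The siCcnf+siNipp1 arrays lay just below the control arrays and the other groups overlapped control. The differences from control were -0.17, -0.31 and -0.36 for siOct4, siCcnf+siNipp1 and siRb1, with an SE of 0.20, and none passed (adjusted p = 0.56, 0.241 and 0.377).

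PPP1R12A had log2 intensities of 8.41, 8.38 and 8.81 on the siOct4 arrays, 8.45, 8.16 and 8.99 on the siCcnf+siNipp1 arrays, 8.47, 8.30 and 8.87 on the siRb1 arrays, and 8.40, 8.71 and 8.88 on the control arrays. Replicate 3 was the highest array in all 4 groups, and every group overlapped every other. Its differences from control lay between -0.13 and -0.12, with 95% intervals that spanned -0.62 to 0.37 over the 3 knockdowns. Neither gene was called in any of the 6 comparisons or with the replicate block.

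PPP1R15A encodes GADD34, the stress-induced subunit that brings PP1 to phosphorylated eIF2 alpha and restores translation. Its log2 intensities were 12.41, 13.26 and 12.72 on the siOct4 arrays, 12.64, 13.28 and 12.90 on the siCcnf+siNipp1 arrays, 12.23, 13.00 and 12.34 on the siRb1 arrays, and 12.34, 12.87 and 12.33 on the control arrays. Replicate 2 was the highest array in all 4 groups, so the spread within a group was larger than the distance between group means. Without regard to replicate number, the differences from control were 0.28 for siOct4 (adjusted p = 0.451), 0.43 for siCcnf+siNipp1 (adjusted p = 0.236) and 0.01 for siRb1 (adjusted p = 0.991).

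With the replicate number as a block, PPP1R15A was higher in siOct4 cells (adjusted p = 0.0415; differences within numbers 0.07, 0.39 and 0.39) and in siCcnf+siNipp1 cells (adjusted p = 0.00633; 0.31, 0.41 and 0.56). It was then also higher in siCcnf+siNipp1 than in siRb1 cells (0.41, adjusted p = 0.00759) and in siOct4 than in siRb1 cells (0.27, adjusted p = 0.0481). PPP1R15B encodes CReP, the constitutive counterpart of GADD34. Its probe pair was below detection on all 12 arrays, with signals of 163.7 to 271.5, so no comparison was made.

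**Figure D3:**
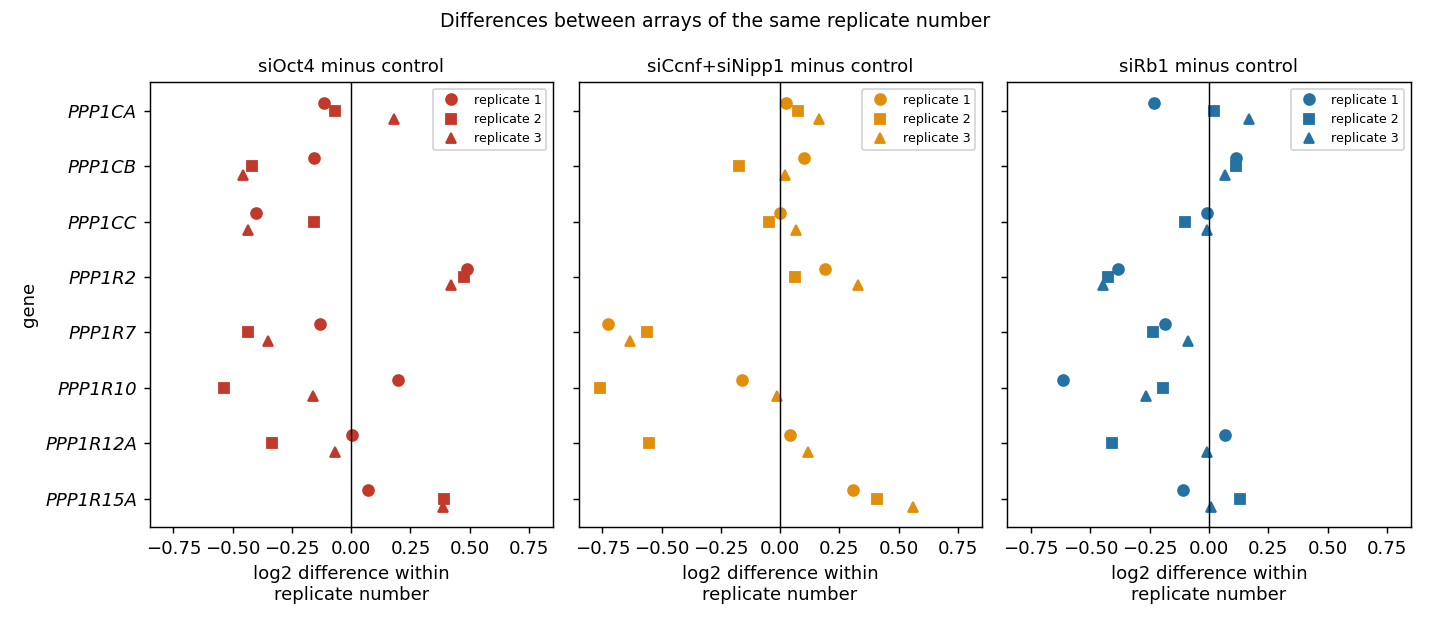
Log2 difference from control between arrays of the same replicate number, for 8 genes (PPP1R1A, whose differences are much larger, is left out). Circles, squares and triangles are replicates 1, 2 and 3. For siOct4 all 3 pairs lie below 0 for PPP1CB, PPP1CC and PPP1R7 and above 0 for PPP1R2 and PPP1R15A. For siCcnf+siNipp1 all 3 pairs lie above 0 for PPP1CA, PPP1R2 and PPP1R15A and below 0 for PPP1R7 and PPP1R10. For siRb1 all 3 pairs lie above 0 for PPP1CB and below 0 for PPP1CC, PPP1R2, PPP1R7 and PPP1R10. The share of all genes with 3 pairs of the same sign was not computed.

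Counted over the family, siOct4 against control called 2 of 9 members higher and 0 lower, beside 32.9% of all genes tested in either direction. siCcnf+siNipp1 against control called 1 higher and 1 lower, beside 37.1% of all genes. siRb1 against control called 0 members by limma, beside 4.18% of all genes, and PPP1R2 was the 1 member with an unadjusted p under 0.05 (0.00331). Between knockdowns, siOct4 against siCcnf+siNipp1 called 2 higher and 1 lower (34.2% of all genes), siOct4 against siRb1 called 2 higher and 1 lower (32.4%), and siCcnf+siNipp1 against siRb1 called 2 higher and 1 lower (35%). In this fit without the replicate block, the shares of members called were near or below these backgrounds in all 6 comparisons.

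With the replicate block the member counts were 3 higher and 3 lower for siOct4 (42.7% of all genes), 2 higher and 1 lower for siCcnf+siNipp1 (46.9%) and 0 higher and 1 lower for siRb1 (9.66%), each against control. They were 3 higher and 2 lower for siOct4 against siCcnf+siNipp1 (44%), 3 higher and 2 lower for siOct4 against siRb1 (41.9%), and 3 higher and 1 lower for siCcnf+siNipp1 against siRb1 (44.1%). With the block, the shares of members called lay above these backgrounds in every siOct4 comparison and near or below them in the others. This excess was not tested. PPP1R1A is among the members called higher in every comparison but siRb1 against control, in both fits. It passed the detection filter only through groups in which it was high, so these counts follow in part from the filter. The 3 comparisons with control share the control arrays. With 3 arrays against 3, an exact permutation test of a single gene cannot give a two-sided p below 0.1.

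Genes that work with PP1 were described by lists, each beside the median log2 difference of all genes, which lay between -0.01 and 0.00 in the comparisons with control. The shares of all genes called there were 32.9% with siOct4, 37.1% with siCcnf+siNipp1 and 4.18% with siRb1. The first list held the mitotic kinases that PP1 opposes, the cyclin gene CCNB1 and the MASTL-ENSA-ARPP19 switch. Of 11 measured genes, 10 were called lower with siOct4 (median -1.07), 8 with siCcnf+siNipp1 (median -0.86) and 0 with siRb1 (median 0.11). AURKB, the kinase of the chromosomal passenger complex, differed from control by -1.34 ± 0.20 in siOct4 cells and by -1.54 ± 0.20 in siCcnf+siNipp1 cells (SE, adjusted p = 0.000449 and 0.000176). PLK1, a kinase of mitotic entry, differed by -1.29 and -0.72, and the checkpoint kinase gene BUB1 by -1.33 and -0.80, in the same order. ARPP19, which inhibits another phosphatase, PP2A, once MASTL has phosphorylated it, was lower in siOct4 cells (-0.90, adjusted p = 0.000386) and differed by 0.28 in siCcnf+siNipp1 cells (adjusted p = 0.116).

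The next list held PP1 partners at the nucleus, chromosomes and centrosomes. Of 12 measured genes, 6 were lower and 1, PPP1R21, was higher with siOct4 (median -0.69). With siCcnf+siNipp1, 7 were lower and 0 higher (median -0.61), a count of 3 without siCcnf+siNipp1 replicate 2 or without control replicate 2. With siRb1 0 were called (median 0.02). CDCA2 (Repo-Man), which brings PP1 gamma to chromosomes at mitotic exit, had log2 intensities of 8.82, 7.88 and 7.93 on the siOct4 arrays and 9.64, 9.25 and 9.41 on the siCcnf+siNipp1 arrays. On the siRb1 arrays it had 10.15, 10.31 and 10.10, and on the control arrays 10.11, 10.34 and 10.16. Its differences from control were -1.99 ± 0.22 for siOct4 (SE, adjusted p = 7.40e-05), -0.77 ± 0.22 for siCcnf+siNipp1 (SE, adjusted p = 0.0163) and -0.02 for siRb1. KNL1, the kinetochore scaffold that docks PP1, differed by -1.55 and -1.19 in siOct4 and siCcnf+siNipp1 cells, where it was detected on 1 and 2 of 3 arrays. MKI67 (Ki-67), a PP1-binding protein of the mitotic chromosome surface, was at least 2.32-fold lower in siOct4 than in control cells, and NEK2, a centrosomal kinase held in a complex with PP1, differed by -1.49 and -1.05.

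A further list held the eIF2 alpha pathway, on which GADD34 acts. Of 13 measured genes, 3 were higher (ASNS, ATF4 and CHAC1) and 1 was lower (EIF2AK1) with siOct4, 4 were higher (EIF2AK3, EIF2AK4, DNAJC3 and CHAC1) and 1 lower (EIF2S1) with siCcnf+siNipp1, and 0 were called with siRb1. Set beside 32.9% and 37.1% of all genes, 4 and 5 of 13 are shares near the background. ASNS, ATF4, EIF2AK1 and EIF2AK4 were named after their values were seen, as was PPP1R21. The siCcnf+siNipp1 count of 5 became 8 with the replicate block, which called 46.9% of all genes. It became 9 without siCcnf+siNipp1 replicate 1, and 3 without siCcnf+siNipp1 replicate 2, control replicate 1 or control replicate 3. The shares of all genes without these arrays are not given here. These moved counts are therefore not read as a result about the list. EIF2AK3, which encodes the endoplasmic reticulum stress kinase PERK, had log2 intensities of 9.22, 10.07 and 10.44 on the siCcnf+siNipp1 arrays, against 8.05, 8.30 and 8.28 on the control arrays. The difference was 1.70 ± 0.25 (SE, adjusted p = 0.000451), against 0.32 in siOct4 cells (adjusted p = 0.366) and 0.09 in siRb1 cells. DNAJC3, which encodes an inhibitor of eIF2 alpha kinases, was higher by 1.10 (adjusted p = 0.000342) and EIF2S1, which encodes eIF2 alpha itself, was lower by a difference of -0.81 (adjusted p = 0.000961) in siCcnf+siNipp1 cells. CHAC1, a glutathione-degrading enzyme gene, was at least 1.38-fold higher in siOct4 than in control cells, where it was below detection. In siCcnf+siNipp1 cells it was detected on replicate 2 only, with log2 values of 5.36, 6.98 and 6.10 against 5.21, 5.32 and 5.17 in control cells, so no fold is given for that call.

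The myosin light chain pathway is the substrate side of PPP1R12A. Of its 11 measured genes, MYL9 was higher and MYLK lower with siOct4, MYL9 and MYH9 were higher with siCcnf+siNipp1, and 0 were called with siRb1. These counts of 2 lie below the 32.9% and 37.1% of all genes called. MYL9, a regulatory light chain, had log2 intensities of 10.19, 10.51 and 10.83 on the siOct4 arrays, 10.27, 10.30 and 10.27 on the siCcnf+siNipp1 arrays, 8.12, 8.01 and 8.36 on the siRb1 arrays, and 8.83, 8.31 and 8.81 on the control arrays. The siOct4 and siCcnf+siNipp1 arrays lay above all others, with differences of 1.87 ± 0.18 and 1.63 ± 0.18 from control (SE, adjusted p = 3.78e-05 and 7.88e-05). MYLK, the light chain kinase, differed by -0.99 with siOct4 (adjusted p = 0.00295), and MYH9, nonmuscle myosin heavy chain, by 0.44 with siCcnf+siNipp1 (adjusted p = 0.0218). The siOct4 count of 2 became 4 with the replicate block, which called 42.7% of all genes. The siCcnf+siNipp1 count of 2 became 1 under median scaling and without siCcnf+siNipp1 replicate 1 or control replicate 1.

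Among 10 further subunits, which target PP1 to myosin or actin or belong to the ASPP family of p53-binding proteins (PPP1R13B, PPP1R13L and TP53BP2), 3 were higher and 2 lower with siOct4, 1 higher with siCcnf+siNipp1 and 1 lower with siRb1. PPP1R18 was higher with siOct4 (0.56) and siCcnf+siNipp1 (0.75), and PPP1R13B, which encodes ASPP1, with siOct4 (0.82). PHACTR2, which encodes an actin-binding PP1 partner, was lower with siOct4 (-0.88) and siRb1 (-1.04). PPP1R12B, a relative of MYPT1, was lower and PPP1R12C higher with siOct4, and both were named after their values were seen. The siOct4 count of 5 became 3 without siOct4 replicate 1 or 2 or control replicate 1 or 3. With the replicate block the siRb1 and siCcnf+siNipp1 counts each became 3, beside 9.66% and 46.9% of all genes.

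Of 2 measured glycogen targeting subunits, PPP1R3D was higher with siOct4 (0.95, adjusted p = 0.00408). PPP1R3B, detected on 5 of 12 arrays, also passed in siOct4 cells (adjusted p = 0.0415) but not with the replicate block (0.0565), and the count of 2 became 1 without any one siOct4 replicate or control replicate 1 or 2. Of 3 further inhibitors, PPP1R11 was higher with siOct4 (0.50, adjusted p = 0.0215), a call lost under median scaling, in the fit of these 2 groups alone, and without siOct4 replicate 2 or 3 or control replicate 2 or 3.

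Of 8 genes of the PNUTS complex and the transcription steps it acts on, POLR2A, the large subunit of RNA polymerase II, was higher with siOct4 (0.53, adjusted p = 0.00673). With siCcnf+siNipp1 the PNUTS partner TOX4 was higher (0.44, adjusted p = 0.0426) and WDR82 lower (-0.41, adjusted p = 0.0343). Both calls were lost without siCcnf+siNipp1 replicate 2 or 3, without control replicate 1 or 2, with no detection filter and in the fit of these groups alone. The TOX4 call was also lost without control replicate 3 and without any one siRb1 replicate. The siOct4 count of 1 became 3 with the replicate block, beside 42.7% of all genes. Of SHOC2, MRAS and GSK3B, the measured genes of the SHOC2 complex and the inhibitor-2 kinase, 0 were called against control by limma with any siRNA. With the replicate block 1 was called with siCcnf+siNipp1 (46.9% of all genes) and 1 with siRb1 (9.66%).

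For comparison with other phosphatases, 25 subunit genes of PP2A, calcineurin and the PP4 to PP6 enzymes were read. Of these, 1 was higher and 4 lower with siOct4, 3 higher and 1 lower with siCcnf+siNipp1, and 1 higher with siRb1, beside 32.9%, 37.1% and 4.18% of all genes. PPP2R2C, a regulatory subunit of PP2A, was higher with all 3 knockdowns (0.57, 0.66 and 0.71), and PPP2R3A, another, was lower with siOct4 (-0.59) and higher with siCcnf+siNipp1 (0.83). The calcineurin catalytic subunit gene PPP3CB was lower with siOct4 (-0.88) and siCcnf+siNipp1 (-0.36), and PPP3CA was higher with siCcnf+siNipp1 (0.62). The siRb1 call was lost without siRb1 replicate 2 or 3 or control replicate 3. The siOct4 count of 5 became 2 without siOct4 replicate 1 or control replicate 3, and 3 without control replicate 1 or 2.

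**Figure D4:**
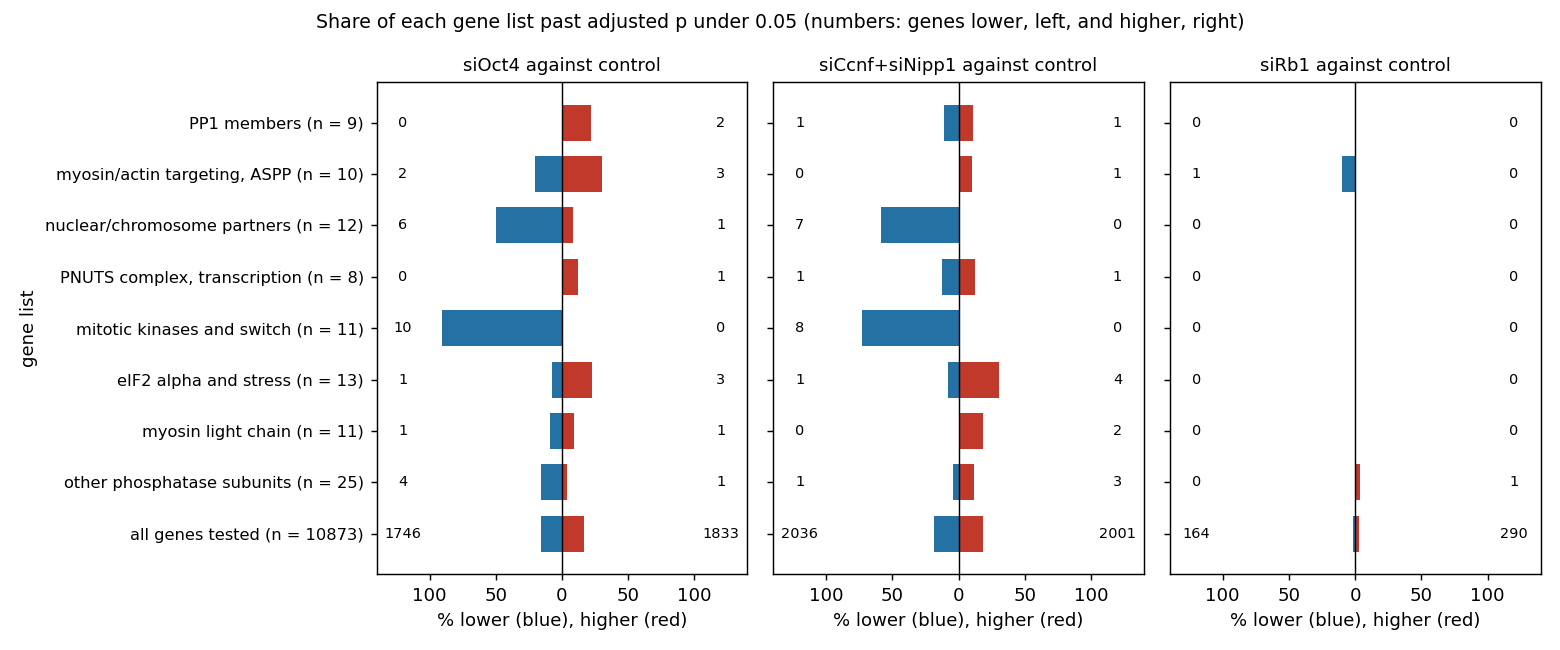
Share of the measured genes of each list that passed an adjusted p of 0.05 in each knockdown against control, lower to the left in blue and higher to the right in red, with the gene counts at the sides and all 10873 genes at the bottom. In the list of mitotic kinases and switch genes, 10 of 11 genes are called lower with siOct4 and 8 of 11 with siCcnf+siNipp1, while the PP1 members are called for 2 of 9 in each.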

How the data were processed

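The submitters read OVCAR-3 arrays in GenomeStudio, per the submitters' processing notes (version not given in the sources used here). Per the file headers, the authors deposited the signal intensity of 47322 probes on 12 arrays with its detection p-value, and normalized intensities of 47303 probes, whose method the headers do not name. GEO's platform table pairs 30102 probes with 1 gene, 8 with several and 17212 with none, and 30063 gene identifiers matched the RefSeq gene table.

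The limma function neqc was applied to the signals (limma 3.58.1, R 4.3.3; background modelled from the detection p-values, offset 16, quantile normalization, log2). Probes detected (detection p under 0.01) on at least 3 of 12 arrays were kept (14441), and where a gene kept several, the probe of highest mean intensity stood for it. All arrays entered 1 limma fit with a mean per group, moderated by eBayes (residual degrees of freedom 8, prior 3.89). Contrasts for the 6 comparisons were two-sided, with Benjamini-Hochberg adjustment over all kept probes. A bound ("at least N-fold") was given where the lower group had the probe undetected on each of its 3 arrays and the higher group had it detected on each. It used group means of neqc values and is not a confidence limit.

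Replicate numbers were taken from the labels. Deviations from group means correlated at 0.102 to 0.426 between arrays with the same number (18 of 18 pairs over 0.1) and at -0.285 to 0.0438 between arrays with different numbers, so the numbers pair the samples. The fit with the replicate block is given for each member call that it changes, but not for every list. It called 9 of 12 nuclear partners lower with siCcnf+siNipp1 against control (46.9% of all genes). Of the other phosphatase subunits it called 1 higher and 5 lower with siOct4 (42.7% of all genes). With siCcnf+siNipp1 it called 5 higher and 1 lower (46.9%), and with siRb1 1 higher and 1 lower (9.66%). Array medians of the signal were 180.4 to 212, and precision is limited by the number of arrays. Genes outside the family were named by a rule: the 4 genes of each list with the smallest F test p, and the 3 genes most correlated with each of the 3 members of smallest F test p. The members, lists and tests were chosen with earlier results of these data known. Alternatives were other background handling, normalization, filters, probe choices, the replicate block, the fit of 2 groups alone and leaving out each array. Figures were drawn in Python 3.11.15.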

Additional observations from a re-analysis of the deposited data

How the results depend on the processing

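Direction was kept for every called member difference in all 22 alternatives run for each. The number of members called for siOct4 against control (2, beside 32.9% of all genes) was 5 without background correction, 5 with the authors' normalized values, 1 under median scaling and 6 with the replicate block (42.7% of all genes). For siRb1 against control (0) it was 1 without background correction (549 of all genes called) and 1 with the replicate block (1050 of all genes called). For siOct4 against siCcnf+siNipp1 (3) it was 1 under median scaling, 1 with no filter, 1 in the fit of the 2 groups alone and 5 with the replicate block. For siOct4 against siRb1 (3) it was 5 with the replicate block. The F test count (3, beside 56.7% of all genes) was 5 without background correction, 5 with the authors' values and 6 with the replicate block (68% of all genes). Leaving out 1 array gave 2 to 3 for siOct4, 2 to 2 for siCcnf+siNipp1 and 0 to 1 for siRb1, each against control, 1 to 3 for siOct4 against siCcnf+siNipp1, 2 to 3 for siOct4 against siRb1, 2 to 3 for siCcnf+siNipp1 against siRb1, and 3 to 4 for the F test. The 1 siRb1 call came without siCcnf+siNipp1 replicate 3 (PPP1R2, adjusted p = 0.0496). Where these counts moved, the cause was not tested. The shares of all genes called are not given for every setting, so the member counts are not read as a result about the members. Across all genes, siRb1 against control called 454 genes, 1050 with the replicate block, and 140 to 281 without siRb1 replicate 1, 2 or 3 or control replicate 2 or 3. Signal near background limits PPP1R1A, for which the fitted siOct4 difference of 3.59 was 1.87 without background correction, 1.90 with the authors' values, 2.41 with normexp at offset 50 and 3.41 to 3.71 in the other alternatives, and PPP1R15B, which was not detected.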
